A study of Mus musculus with 6 samples.

Results

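Ribosome biogenesis and RNA polymerase I genes were followed as a set of 57 genes, out of 25031 genes in the count table. They were found by symbol. The set covers the proteins of small nucleolar ribonucleoprotein particles (snoRNPs), the factors that build the small and the large ribosomal subunit, and RNA polymerase I. The set was proposed with the differences between the groups of these libraries already known, so those differences are given here as a description and support no claim about the set.

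RNA was sequenced from kidneys of male C57BL/6 mice, wild type and 7 to 8 weeks old. All animals, those given saline included, went through 23 min of ischemia of both kidneys at a body temperature of 37 °C, an ischemia-reperfusion model of acute kidney injury. In 3 libraries the animals had received 5 mg/kg of (+)CePPy by vein right after the injury, and in the other 3 the same volume of saline, called vehicle here. The particles are of polypyrrole doped with cerium and carry a positive charge. No uninjured kidney was analysed here, and the labels do not state how long after the injury kidneys were taken. Nor do they tell whether the libraries of a group are separate animals, so p-values measure the spread between libraries, which may be technical.

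Ribosomes are made in the nucleolus. RNA polymerase I transcribes a long precursor of the ribosomal RNAs. snoRNPs guide its chemical modification, large complexes fold and cut it, and further factors carry the subunits to the cytoplasm. The demand for ribosomes is high in growing and regenerating cells, and tubule cells of an injured kidney re-enter growth during repair. The transcription factor MYC is a well known activator of these genes. The ribosomal RNA precursor itself was not analysed here.

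Total counts were 37415213, 37029050 and 29762157 in CePPy libraries 1, 2 and 3, against 35114355, 33039101 and 34518294 in vehicle libraries 1, 2 and 3. All 57 genes passed the filter on low counts, with between 119 and 16143 counts in a library. Levels are CPM, the counts of a gene per 1000000 counts, scaled to TMM-adjusted library sizes, where 1 count equals 0.0266 to 0.0333 CPM, and RPKM is CPM per kilobase of merged exons. The kidney label was checked with 10 proximal tubule markers, such as Slc34a1 and Lrp2, and all 10 were detected. Their summed level was 12720 to 23210 CPM in CePPy and 12220 to 13600 CPM in vehicle.

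Promoter windows in RefSeq (build GRCm38.p6, 250 bases before to 50 after a gene's start) were found for 49 of the 57 genes. The 4 printed here, 5′ to 3′ on the strand of the gene, show the gene with the lowest value relative to vehicle (Nhp2), the next lowest (Mrto4), and a pair that holds the same E-box but lay on opposite sides of 0 (Pes1 and Utp20). Capitals mark CCGGAAGT, the core bound by ETS factors, in Nhp2 and CACGTG, the E-box bound by MYC and related factors, in Pes1 and Utp20. None of the 4 motifs searched was found in the Mrto4 window.
Nhp2, chr11:51619523-51619822, plus strand: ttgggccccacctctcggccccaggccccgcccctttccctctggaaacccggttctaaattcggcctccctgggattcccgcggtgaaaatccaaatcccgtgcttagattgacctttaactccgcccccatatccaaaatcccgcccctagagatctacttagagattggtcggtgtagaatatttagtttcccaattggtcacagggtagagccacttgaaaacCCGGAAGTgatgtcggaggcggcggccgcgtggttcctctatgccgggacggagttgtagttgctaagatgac
Mrto4, chr4:139352527-139352826, minus strand: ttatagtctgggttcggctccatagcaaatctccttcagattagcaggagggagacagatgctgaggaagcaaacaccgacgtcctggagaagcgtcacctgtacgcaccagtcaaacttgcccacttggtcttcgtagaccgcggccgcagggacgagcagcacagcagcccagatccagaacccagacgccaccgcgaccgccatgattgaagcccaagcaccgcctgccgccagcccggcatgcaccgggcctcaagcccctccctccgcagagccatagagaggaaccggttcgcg
Pes1, chr11:3963725-3964024, plus strand: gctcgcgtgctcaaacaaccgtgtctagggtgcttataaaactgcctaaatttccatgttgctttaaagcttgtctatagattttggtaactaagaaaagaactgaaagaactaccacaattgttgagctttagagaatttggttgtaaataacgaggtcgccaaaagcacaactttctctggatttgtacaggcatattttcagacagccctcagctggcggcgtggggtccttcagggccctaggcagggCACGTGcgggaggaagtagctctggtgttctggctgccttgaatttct
Utp20, chr10:88826765-88827064, minus strand: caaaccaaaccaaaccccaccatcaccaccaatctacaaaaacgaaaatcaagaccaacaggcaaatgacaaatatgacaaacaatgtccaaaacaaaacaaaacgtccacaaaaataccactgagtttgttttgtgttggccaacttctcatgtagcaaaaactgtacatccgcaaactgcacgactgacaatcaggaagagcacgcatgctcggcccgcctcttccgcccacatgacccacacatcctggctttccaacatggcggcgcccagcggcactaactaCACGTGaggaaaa

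Most ribosome biogenesis genes had slightly lower values after CePPy. The log2 fold change of CePPy over vehicle was below 0 for 54 of 57 genes, where 49.5% of the 15416 genes tested lay below 0, and the median was -0.23 beside 0.003 over all genes tested. The differences were small: 3 genes (Nhp2, Mrto4 and Npm1) lay under -0.4, 9 between -0.4 and -0.3, 26 between -0.3 and -0.2, 8 between -0.2 and -0.1, 8 between -0.1 and 0, and 3 (Npm3, Utp6 and Utp20) above 0. By edgeR's quasi-likelihood test over all genes, 0 of the 57 genes passed an adjusted p of 0.05 (background 0.00649%), while 18 were lower at an unadjusted p under 0.05 (background 9.37%) and 0 higher (background 9.65%). That count of 18 depended on single libraries. In either direction, 2931 of all 15416 genes tested were under this p with all libraries. Without CePPy 3 the count was 7 of the 57 genes (beside 2245 of all 15692 tested). It was 8 without vehicle 2 (beside 2249 of 15730) and 10 without CePPy 1 (beside 2692 of 15678). In those fits the share was near that of all genes. The count was 10 without vehicle 3 (beside 2057 of 15759) and 18 without vehicle 1 (beside 2000 of 15719). Without CePPy 2 it was 33 (beside 3761 of 15697). DESeq2 called 5 of the 57 genes lower (background 3.20%), namely Nhp2, Mrto4, Nip7, Polr1b and Npm1, and 0 higher (background 3.40%). limma-voom called 0. Every CePPy library lay below every vehicle library for 16 genes, beside 14.0% of all genes tested, and above for 0, beside 12.3%. Without CePPy 1 the median was -0.15 and 49 genes had lower values; without CePPy 2 the median was -0.32 and edgeR called 5 of the 57 genes lower (background 2.19%) and 0 higher (background 2.98%). In RNA of a mixed tissue, fewer cells that express these genes and less RNA per cell cannot be told apart.

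**Figure D1:**
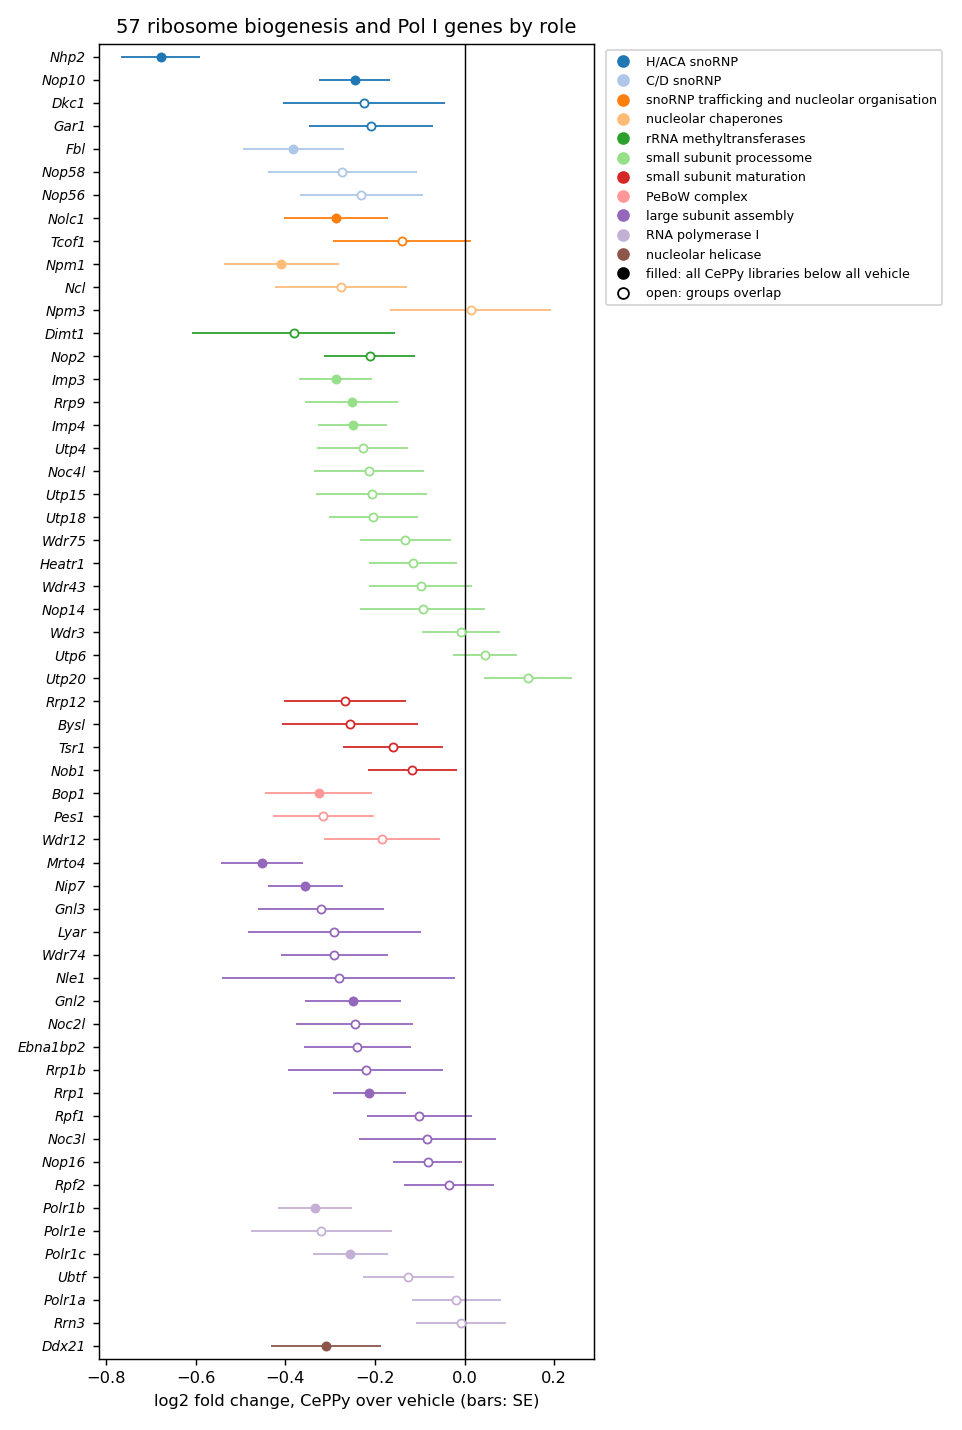
Log2 fold change of CePPy over vehicle (x axis, bars are SE, n = 3 libraries per group) for each of the 57 genes, grouped by role. Values run from -0.68 for Nhp2 to 0.14 for Utp20. The 16 filled points are genes whose CePPy libraries all lay below all vehicle libraries, beside 14.0% of all genes tested.

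Box H/ACA snoRNPs convert chosen uridines of ribosomal RNA to pseudouridine, and their core is made of dyskerin (Dkc1), Nhp2, Nop10 and Gar1. All 4 genes had lower values in CePPy. Nhp2, which lies on chromosome 11 at 51619735 to 51623714 (plus strand, GRCm38), had 51.8, 60.2 and 57.5 CPM in CePPy, against 89.2, 96.6 and 85.5 CPM in vehicle. The groups did not overlap, and the log2 fold change of -0.68 (SE 0.09, n = 3 each) was the lowest of the 57. Ranked by edgeR p over all genes tested, Nhp2 stood at place 8.

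Nop10, on chromosome 2 at 112261926 to 112263269 (plus strand), had 51.8, 49.8 and 48.2 CPM in CePPy, against 56.3, 57.6 and 63.7 CPM in vehicle. Its groups were apart as well, with a smaller difference (log2 fold change -0.24, SE 0.08). Gar1 had 13.3, 18.8 and 16.6 CPM in CePPy, against 17.9, 19.4 and 18.9 CPM in vehicle (-0.21, SE 0.14), and CePPy 2 lay within the vehicle range. For Dkc1, the catalytic subunit, the means were 24.6 ± 6.11 CPM in CePPy and 28.7 ± 2.77 CPM in vehicle (SD, n = 3 each), with overlapping groups and a log2 fold change of -0.22 (SE 0.18). The 4 proteins act in 1 complex, and the gap between Nhp2 and its 3 partners was not tested.

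Box C/D snoRNPs place methyl groups on the ribose of ribosomal RNA. Fbl encodes the methyltransferase fibrillarin, and Nop56 and Nop58 the scaffold proteins that hold the guide RNA. Fbl, on chromosome 7 at 28169710 to 28179269 (plus strand), had 47.5, 63.8 and 58.0 CPM in CePPy, against 70.4, 76.4 and 73.8 CPM in vehicle. All its CePPy values lay below all vehicle values (log2 fold change -0.38, SE 0.11). Nop56 had 37.2, 53.5 and 49.3 CPM in CePPy, against 51.2, 59.9 and 53.1 CPM in vehicle (-0.23, SE 0.14). Nop58 had 46.3, 73.1 and 58.9 CPM in CePPy, against 62.9, 80.5 and 72.1 CPM in vehicle (-0.27, SE 0.17). For both scaffold genes CePPy 2 lay inside the vehicle range and CePPy 1 below all other libraries. Nop56, Nop58, Ncl and Gnl3 also have small RNA genes within their merged exons, among them the snoRNA genes Snord57 in Nop56, Snora75 in Ncl, and Snord19 and Snord69 in Gnl3.

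Among the nucleolar organisers and chaperones were Ncl and Npm1, the genes of the set with the highest CPM. Nolc1 encodes a protein that escorts snoRNPs to the nucleolus, and Tcof1 encodes treacle, which supports RNA polymerase I transcription. Nolc1 had 47.5, 61.0 and 54.1 CPM in CePPy, against 61.3, 73.9 and 63.1 CPM in vehicle, so the groups were just apart (log2 fold change -0.29, SE 0.12). Tcof1 overlapped, with 19.2, 28.2 and 26.5 CPM in CePPy, against 24.4, 28.5 and 28.6 CPM in vehicle (-0.14, SE 0.15), and its log2 fold change was 0.02 without CePPy 1.

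Nucleophosmin (Npm1) and nucleolin (Ncl) are abundant histone and RNA chaperones of the nucleolus. Npm1, on chromosome 11 at 33152287 to 33163206 (minus strand), had 236, 327 and 264 CPM in CePPy, against 343, 382 and 373 CPM in vehicle. The groups were apart, with a log2 fold change of -0.41 (SE 0.13). Ncl, on chromosome 1 at 86344719 to 86359400 (minus strand), had 292, 429 and 355 CPM in CePPy, against 387, 462 and 454 CPM in vehicle (-0.28, SE 0.15). Here CePPy 2 lay above vehicle 1, so the groups overlapped. Npm3, a smaller relative of nucleophosmin, showed no separation: it had 30.7, 22.2 and 21.7 CPM in CePPy, against 22.1, 30.2 and 21.6 CPM in vehicle (0.01, SE 0.18). Its sign turned with library sizes alone (-0.02) and without CePPy 1, vehicle 1 or vehicle 3. A pseudogene named after Npm3, and a pair named after Mrto4, are annotated and could share their reads.

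**Figure D2:**
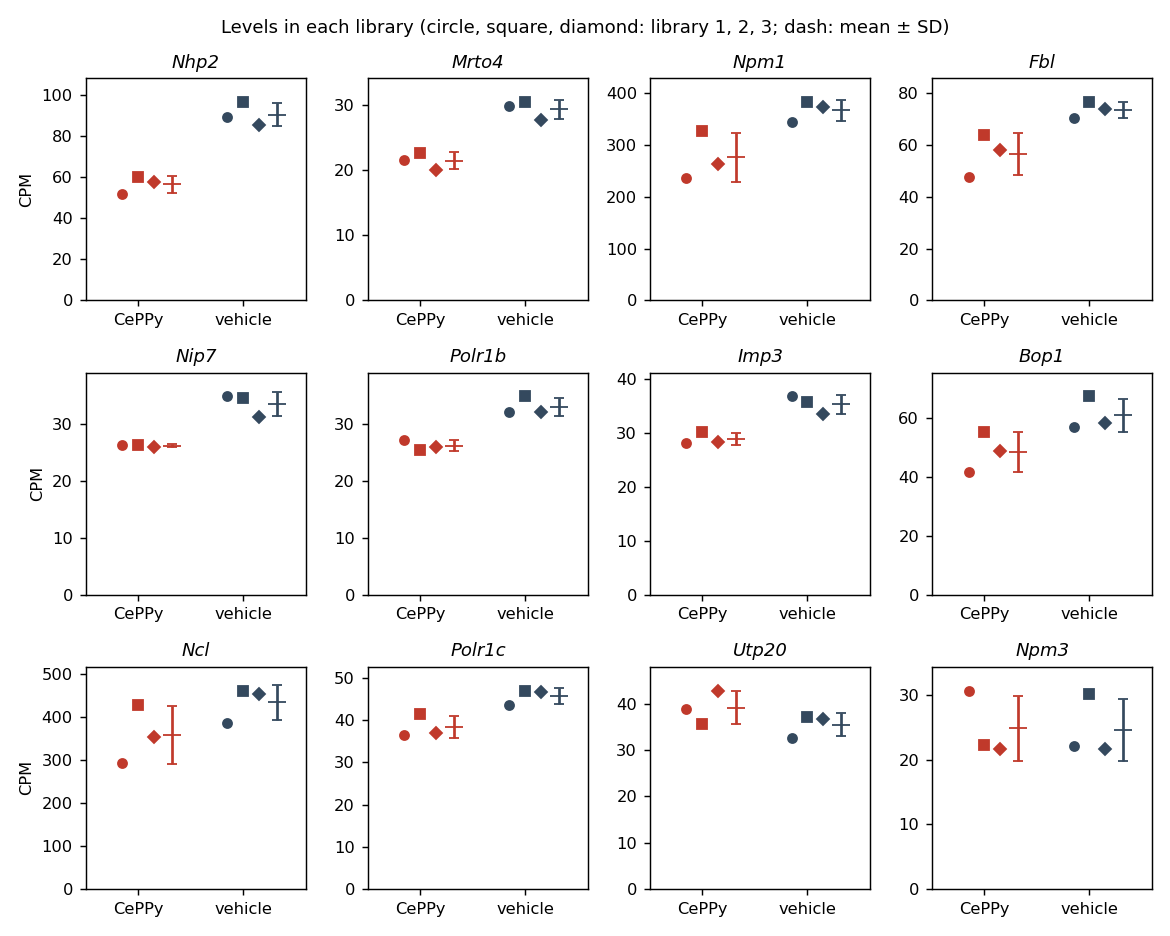
CPM (y axis, from 0) of 12 genes in each CePPy and vehicle library, with mean ± SD (n = 3 each). The CePPy libraries lie below the vehicle libraries for 9 of the genes shown, and the groups overlap for Ncl, Utp20 and Npm3. In the whole set they lie below for 16 of 57 genes, beside 14.0% of all genes tested.

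Of the rRNA methyltransferases, Nop2 modifies a cytosine of the large subunit rRNA and Dimt1 a pair of adenosines of the small subunit rRNA. Nop2 had 36.4, 46.3 and 39.5 CPM in CePPy, against 45.3, 48.6 and 47.6 CPM in vehicle (log2 fold change -0.21, SE 0.10). Dimt1, at 1.76 RPKM one of the lowest of the set per length, had 4.08, 7.18 and 6.37 CPM in CePPy, against 6.74, 8.12 and 8.11 CPM in vehicle (-0.38, SE 0.23). The groups overlapped for both, through CePPy 2. Exons of Kif2a on the other strand cover 31.9% of the Dimt1 exons.

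The small subunit processome is the large particle that assembles on the nascent precursor and makes its early cuts. Of its 14 genes in the set, 12 had lower and 2 higher values in CePPy, with a median log2 fold change of -0.17. Imp3 and Imp4 encode partners of the processome protein Mphosph10. Imp3, on chromosome 9 at 56937475 to 56938398 (plus strand), had 28.2, 30.2 and 28.4 CPM in CePPy, against 36.8, 35.7 and 33.5 CPM in vehicle (-0.29, SE 0.08). Imp4, on chromosome 1 at 34439851 to 34449356 (plus strand), had 49.7, 54.0 and 48.4 CPM in CePPy, against 61.2, 62.2 and 57.5 CPM in vehicle (-0.25, SE 0.08). The snoRNP protein gene Rrp9 had 18.3, 18.6 and 18.2 CPM in CePPy, against 19.8, 24.2 and 21.7 CPM in vehicle (-0.25, SE 0.10). For these 3 genes every CePPy value lay below every vehicle value, CePPy 2 included, but they were named for a low p. They were the only 3 of the 14 genes to do so, beside 14.0% of all genes tested.

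Other processome genes were nearer to 0 and overlapped between the groups. Utp4, Noc4l, Utp15 and Utp18 had log2 fold changes between -0.23 and -0.20, and Wdr75, Heatr1, Wdr43, Nop14 and Wdr3 between -0.13 and -0.01. Without CePPy 1 the value of Nop14 was 0.03 and that of Wdr3 0.02. Utp20, which encodes a very large scaffold protein, had the highest log2 fold change of the set: it had 38.9, 35.7 and 42.8 CPM in CePPy, against 32.6, 37.2 and 36.7 CPM in vehicle (0.14, SE 0.10). CePPy 2 was within the vehicle range here too. Utp6 averaged 58.5 ± 2.00 CPM in CePPy and 56.7 ± 2.07 CPM in vehicle (SD, n = 3 each), a log2 fold change of 0.05 (SE 0.07).

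Later steps of the small subunit are carried by Rrp12 and Bysl, which accompany the particle on its way out of the nucleus, Tsr1, which holds the maturing subunit, and Nob1, the nuclease of the final cut. All 4 genes had lower mean values in CePPy, and all 4 overlapped between groups. Rrp12 had 14.4, 18.9 and 16.2 CPM in CePPy, against 17.6, 22.0 and 19.96 CPM in vehicle (log2 fold change -0.27, SE 0.14). Bysl had 31.7, 43.6 and 29.7 CPM in CePPy, against 40.8, 45.9 and 38.8 CPM in vehicle (-0.26, SE 0.15). Tsr1 had 37.2, 41.7 and 40.9 CPM in CePPy, against 44.9, 50.5 and 38.4 CPM in vehicle (-0.16, SE 0.11). Vehicle 3 was the low vehicle library for Tsr1, and exons of Srr on the other strand, itself at 85.4 CPM in CePPy and 63.3 CPM in vehicle, cover 32.3% of the Tsr1 exons. Nob1 averaged 23.6 ± 1.64 CPM in CePPy and 25.6 ± 1.88 CPM in vehicle (-0.12, SE 0.10).

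Pes1, Bop1 and Wdr12 form the PeBoW complex, needed to process the precursor of the large subunit rRNAs. Bop1, on chromosome 15 at 76452989 to 76477277 (minus strand), had 41.5, 55.2 and 48.6 CPM in CePPy, against 56.97, 67.2 and 58.1 CPM in vehicle (log2 fold change -0.33, SE 0.12). Pes1, on chromosome 11 at 3963975 to 3980004 (plus strand), had 61.5, 77.1 and 64.8 CPM in CePPy, against 75.0, 90.0 and 88.1 CPM in vehicle (-0.32, SE 0.11). Wdr12 had 19.98, 27.5 and 24.9 CPM in CePPy, against 26.5, 26.5 and 29.3 CPM in vehicle (-0.18, SE 0.13). Only Bop1 of these 3 had all CePPy values under all vehicle values; for Pes1 and Wdr12, CePPy 2 reached into the vehicle range.

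All 15 genes for assembly of the large subunit had lower values, with a median log2 fold change of -0.25 and a range from -0.45 to -0.03. Mrto4 encodes a protein that holds the place of the ribosomal stalk on the immature subunit. On chromosome 4 at 139347435 to 139352576 (minus strand), it had 21.6, 22.7 and 20.1 CPM in CePPy, against 29.9, 30.5 and 27.7 CPM in vehicle (-0.45, SE 0.09). Nip7, an RNA-binding factor of the large subunit on chromosome 8 at 107056877 to 107060931 (plus strand), had 26.4, 26.2 and 25.9 CPM in CePPy, against 34.8, 34.5 and 31.1 CPM in vehicle (-0.36, SE 0.08). For both genes the CePPy libraries were close to each other and all below the vehicle libraries, but both were named for a low p. In this way 4 of the 15 genes lay below, beside 14.0% of all genes tested.

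Rrp1, the most abundant of these transcripts per length, had 108, 125 and 112 CPM in CePPy, against 129, 134 and 137 CPM in vehicle (log2 fold change -0.21, SE 0.08). The GTPase gene Gnl2 was the fourth without overlap, at 36.0 ± 4.43 CPM in CePPy and 42.8 ± 2.31 CPM in vehicle (-0.25, SE 0.11). Gnl3, which encodes nucleostemin, a GTPase known from stem and tumour cells, averaged 37.2 ± 7.49 CPM in CePPy and 46.5 ± 2.85 CPM in vehicle (-0.32, SE 0.14), with overlap. Lyar, Wdr74, Nle1, Noc2l, Ebna1bp2 and Rrp1b had log2 fold changes between -0.29 and -0.22. Rpf1, Noc3l, Nop16 and Rpf2 were between -0.10 and -0.03, and Noc3l and Rpf2 turned above 0 with a library left out.

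RNA polymerase I genes split between lower and near-equal values. Polr1b encodes the second largest subunit, which forms part of the catalytic centre. On chromosome 2 at 129100995 to 129126594 (plus strand), it had 27.3, 25.4 and 26.1 CPM in CePPy, against 32.1, 34.9 and 32.2 CPM in vehicle (log2 fold change -0.33, SE 0.08). Polr1c encodes a subunit shared with RNA polymerase III. On chromosome 17 at 46243920 to 46248054 (minus strand), it had 36.6, 41.4 and 37.1 CPM in CePPy, against 43.5, 47.0 and 46.8 CPM in vehicle (-0.25, SE 0.08). Both had all CePPy values below all vehicle values, but they were named for a low p. They were 2 of the 6 RNA polymerase I genes, beside 14.0% of all genes tested. Polr1e had 13.4, 19.6 and 14.9 CPM in CePPy, against 18.0, 21.7 and 20.1 CPM in vehicle (-0.32, SE 0.16), with CePPy 2 inside the vehicle range.

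The largest subunit and the initiation factors were closer between the groups. Polr1a, which encodes the largest subunit, averaged 33.4 ± 2.76 CPM in CePPy and 33.8 ± 2.59 CPM in vehicle (SD, n = 3 each; log2 fold change -0.02, SE 0.10). Rrn3, the factor that recruits the polymerase to its promoter, averaged 32.4 ± 3.04 CPM in CePPy and 32.6 ± 2.05 CPM in vehicle (-0.01, SE 0.10). Ubtf, which encodes the factor UBF that opens the ribosomal RNA genes, averaged 97.7 ± 10.6 CPM in CePPy and 107 ± 7.57 CPM in vehicle (-0.13, SE 0.10). These 3 genes overlapped between groups, and the signs of Polr1a and Rrn3 turned when single libraries were left out. The helicase gene Ddx21, whose product links RNA polymerase I to pre-rRNA processing, had 71.7, 100 and 85.6 CPM in CePPy, against 101, 111 and 108 CPM in vehicle (-0.31, SE 0.12). CePPy 2 was just below vehicle 1 for Ddx21.

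Per length, the levels spanned from 1.66 RPKM (Nle1) to 120 RPKM (Npm1) as the mean of all 6 libraries, with a median of 9.92 RPKM. Nhp2 (64.1 RPKM), Nop10 (49.2 RPKM), Ncl (38.9 RPKM), Rrp1 (37.2 RPKM) and Imp3 (34.8 RPKM) followed Npm1. Their log2 fold changes lay between -0.68 and -0.21. Merged exons include rarely used transcripts, so a gene such as Nop58, with 10758 bp of merged exons, has a low RPKM for its count.

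**Figure D3:**
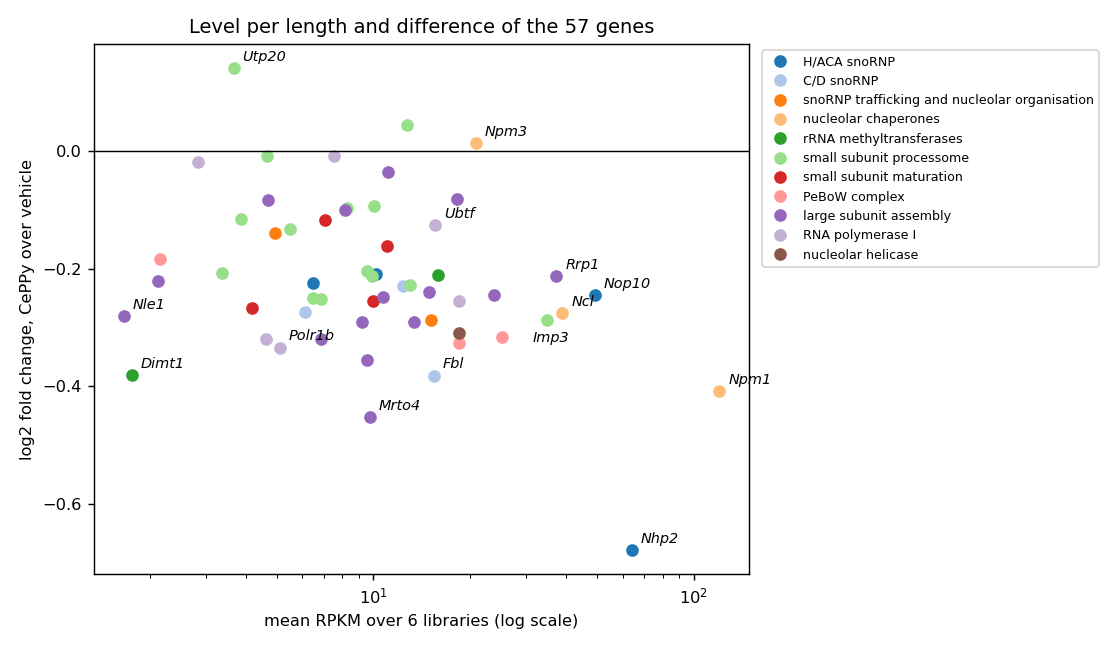
Mean RPKM over 6 libraries (x axis, log scale) against the log2 fold change of CePPy over vehicle (y axis) for the 57 genes, coloured by role. Npm1 is the most abundant at 120 RPKM, and genes below 0 are found at all levels.

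The libraries of a group ranked alike for most of these genes. The mean log2 level of the 57 genes against the vehicle mean was -0.36, -0.07 and -0.22 in CePPy 1, 2 and 3, and -0.08, 0.08 and 0.00 in vehicle 1, 2 and 3. CePPy 2 was level with vehicle 1. Their summed level was 2351, 2973 and 2620 CPM in CePPy, against 2958, 3317 and 3181 CPM in vehicle. CePPy 1 was the lowest of its group for 44 of the 57 genes (77.2%), against 38.7% of all genes tested, and CePPy 2 the highest for 44 (77.2%), against 34.3%. Within vehicle, library 2 was the highest for 39 genes (68.4%), against 33.6% of all genes tested, and library 1 the lowest for 43 (75.4%), against 33.6%. These orders compare libraries within a group. The set was chosen with the difference between the groups known, so the orders may not be free of that choice. They are given without a test, since genes of a library are not independent.

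CePPy 2 was nearest to the vehicle mean in each role group. Mean log2 levels in CePPy 1, 2 and 3 were -0.53, -0.19 and -0.32 for the H/ACA snoRNP, -0.60, -0.07 and -0.26 for the C/D snoRNP, -0.40, -0.07 and -0.22 for large subunit assembly and -0.21, -0.04 and -0.16 for the processome. RNA polymerase I genes stood at -0.29, -0.07 and -0.17. CePPy 1 and CePPy 3 were nearly level for the nucleolar chaperones, at -0.29 and -0.31, and for small subunit maturation, at -0.28 and -0.28.

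In 4 of the 7 marker lists, those of proximal tubule, distal nephron and collecting duct, injured tubule and neutrophils, CePPy 1 was farthest from vehicle and CePPy 2 nearest. The 10 proximal tubule markers had a mean log2 level of 0.99, 0.09 and 0.61 in CePPy 1, 2 and 3, and all 10 had higher values in CePPy. The 9 markers of the distal nephron and collecting duct, all with higher values, stood at 1.14, 0.34 and 0.79, with a summed level of 3953 to 6818 CPM in CePPy and 3133 to 3412 CPM in vehicle. Markers of injured tubule cells, 7 of 8 with lower values, stood at -1.39, -0.13 and -0.32, with sums of 16120 to 30490 CPM in CePPy and 27560 to 28350 CPM in vehicle. Markers of proliferating cells, where CePPy 3 was nearest, had lower values for 9 of 9 genes, at -0.84, -0.23 and -0.10, with sums of 214 to 335 CPM in CePPy and 387 to 436 CPM in vehicle.

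Neutrophil markers, at -1.27, -0.56 and -0.90 in CePPy 1, 2 and 3, had lower values for 7 of the 7 tested, out of 9, with sums of 10.6 to 24.7 CPM in CePPy and 35.6 to 54.9 CPM in vehicle, and Mpo had no count in any library. Macrophage markers had lower values for 7 of 9, at 204 to 251 CPM in CePPy and 237 to 281 CPM in vehicle. T and B cell markers summed to 7.23 to 16.1 CPM in CePPy and 4.07 to 12.1 CPM in vehicle, with 7 of the 7 tested at higher values. The part of these marker differences in the levels of the ribosome biogenesis genes was not tested.

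**Figure D4:**
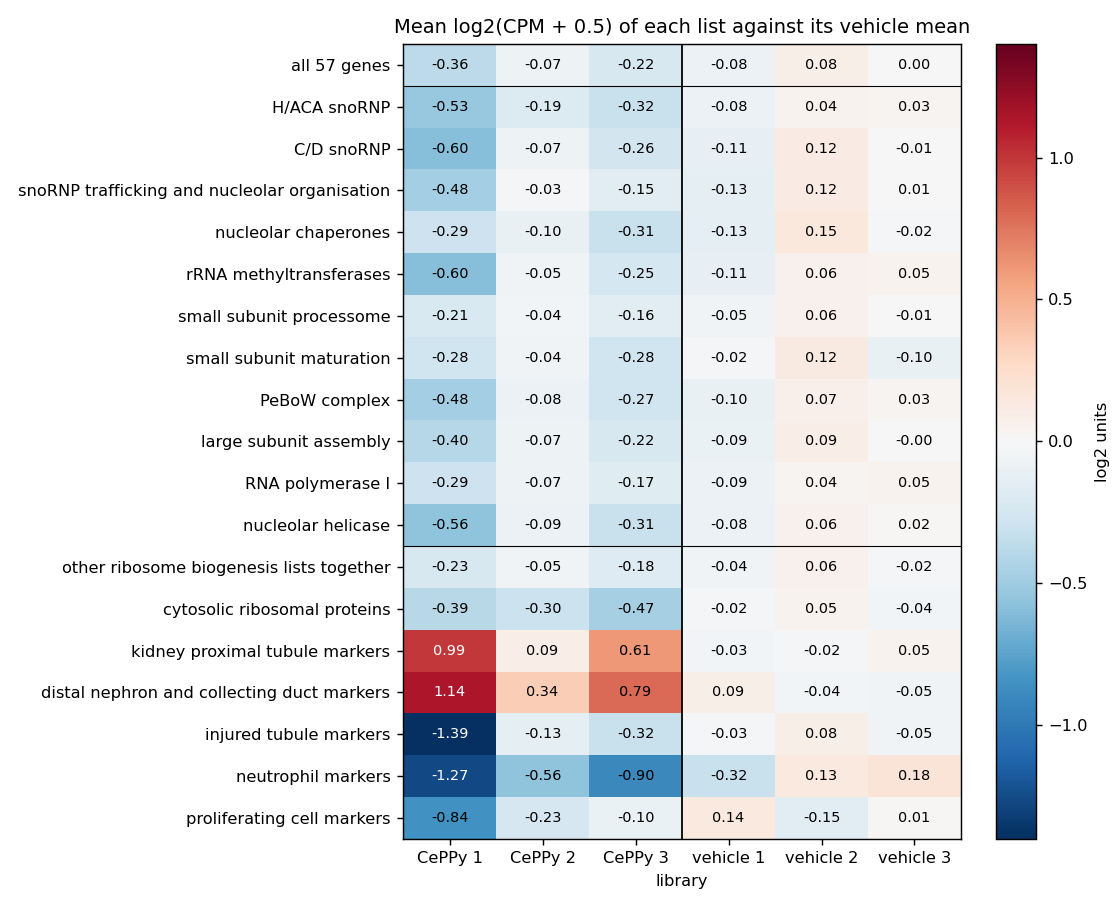
Mean log2(CPM + 0.5) of each list in each library against its own vehicle mean (columns are libraries, rows are lists, colour and printed number in log2 units). The 57 genes read -0.36, -0.07 and -0.22 in CePPy 1, 2 and 3. Markers of proximal tubule and of distal nephron and collecting duct run the other way, and injured tubule markers the same way. CePPy 2 is nearest to vehicle in each of these rows.

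Further genes of the pathway that are outside the set gave smaller medians of the same sign. Over 6 lists with 121 genes tested, 101 had lower values and 20 higher, with a median log2 fold change of -0.15. edgeR called 0 of the 121 in either direction (background 0.00649% lower). At an unadjusted p under 0.05, 30 were lower (background 9.37%) and 0 higher (background 9.65%). DESeq2 called 5 lower (background 3.20%) and 0 higher (background 3.40%). By list, 10 of 14 other RNA polymerase I genes, 30 of 37 other processome genes, 33 of 38 other large subunit genes, 8 of 9 snoRNP assembly factors, 11 of 13 RNA exosome genes and 9 of 10 genes of RNase MRP and P had lower values. These lists were written with the results of the series known, so their counts are descriptive too.

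Among these genes, Polr2e, a subunit common to all nuclear RNA polymerases, had 57.2, 59.1 and 54.5 CPM in CePPy, against 81.0, 68.3 and 73.1 CPM in vehicle (log2 fold change -0.38, SE 0.09). Polr1d, shared by polymerases I and III, had 73.6, 70.7 and 65.5 CPM in CePPy, against 83.3, 83.6 and 82.8 CPM in vehicle (-0.25, SE 0.07). Emg1, a methyltransferase of small subunit rRNA, had 39.9, 42.9 and 38.9 CPM in CePPy, against 50.4, 53.8 and 48.6 CPM in vehicle (-0.33, SE 0.08). All 3 had CePPy values below all vehicle values, but they were named for a low p. Of the 121 genes, 34 lay below in this way, beside 14.0% of all genes tested. Only 1 lay above, beside 12.3%. Rrs1, of large subunit assembly, averaged 34.8 ± 2.08 CPM in CePPy and 40.6 ± 0.959 CPM in vehicle (-0.22, SE 0.08). Exosc8, of the exosome that trims rRNA precursors, averaged 12.9 ± 0.711 CPM in CePPy and 17.0 ± 1.596 CPM in vehicle (-0.40, SE 0.11).

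Regulators of ribosome synthesis showed mixed values, with 12 of 17 tested lower and a median log2 fold change of -0.06. Myc had 24.3, 56.0 and 41.4 CPM in CePPy, against 50.6, 50.1 and 33.1 CPM in vehicle, so the groups overlapped (-0.14, SE 0.29) and the value was 0.13 without CePPy 1. CePPy 1 was the lowest and CePPy 2 the highest library for Myc. Mxd4, which encodes a repressor that competes with MYC for the partner MAX, had 95.2, 97.2 and 104 CPM in CePPy, against 87.0, 83.3 and 83.5 CPM in vehicle (0.22, SE 0.07), with no overlap and no call by edgeR or DESeq2.

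The p53 pathway responds when ribosome assembly is disturbed. Trp53, which encodes p53, had 52.7, 80.0 and 64.4 CPM in CePPy, against 73.8, 88.1 and 80.7 CPM in vehicle (log2 fold change -0.30, SE 0.15). Mdm2, which encodes its ubiquitin ligase, had 52.4, 45.5 and 44.5 CPM in CePPy, against 48.4, 50.02 and 48.7 CPM in vehicle (-0.05, SE 0.09). Both overlapped between the groups. Cdkn1a, a target of p53 that halts the cell cycle, had 34.0, 50.4 and 41.5 CPM in CePPy, against 69.2, 61.9 and 71.7 CPM in vehicle (-0.69, SE 0.14); it was called lower by DESeq2 and not by edgeR. Cdkn2a had no count in any library.

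The 79 cytosolic ribosomal protein genes, which encode the proteins of the finished ribosome, had 78 lower values and a median log2 fold change of -0.39. Their mean log2 level was -0.39, -0.30 and -0.47 in CePPy 1, 2 and 3, where the biogenesis genes stood at -0.36, -0.07 and -0.22. DESeq2 called 68 of the 79 lower (background 3.20%) and 0 higher (background 3.40%). edgeR called 0 (background 0.00649% lower), with 75 lower and 0 higher at an unadjusted p under 0.05 (background 9.37% lower). The difference between the lists was not tested, and many ribosomal protein genes have processed copies that can share their reads.

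Many of the 57 genes start back to back with a neighbour. A protein-coding gene on the other strand started within 1000 bp upstream for 15 of them (26.3%), against 9.25% of the 14447 protein-coding genes tested. For the 14 neighbours that were tested the median log2 fold change was -0.04, beside -0.24 for their 14 partners in the set. The gene of the set had the lower log2 fold change in 14 of the 14 pairs. The set was proposed with its lower values known, and that choice alone favours this order. Mrto4 and Emc1, a gene of membrane protein insertion that starts 11 bp away, had -0.45 (SE 0.09) and -0.25 (SE 0.08). Bysl and Med20, a Mediator subunit gene 90 bp away, had -0.26 (SE 0.15) and 0.11 (SE 0.11). Nop16 and Higd2a, 117 bp apart, had -0.08 (SE 0.08) and 0.03 (SE 0.13). No test was run on the gap in a pair or across pairs.

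**Figure D5:**
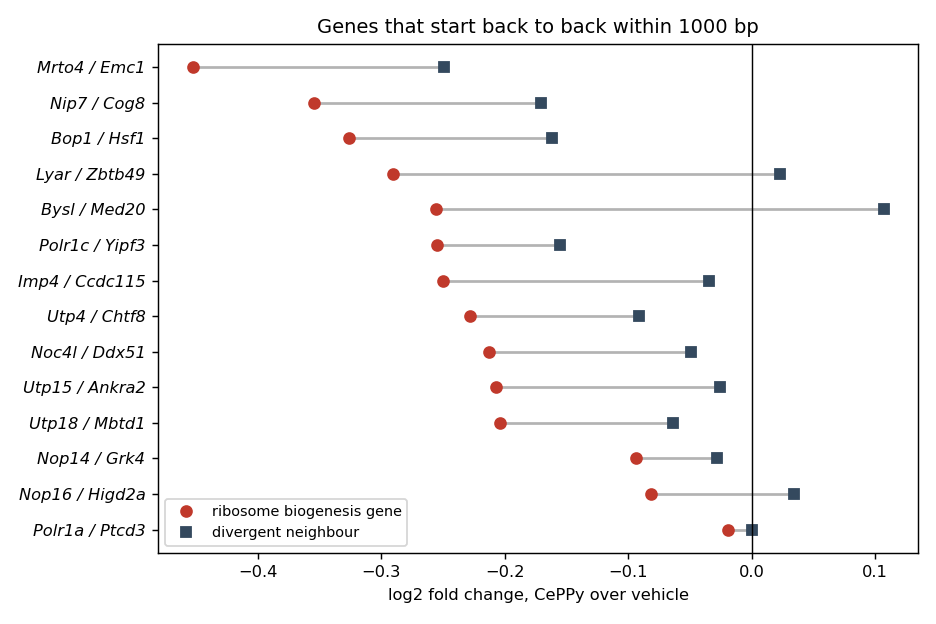
Log2 fold change of CePPy over vehicle (x axis) for 14 ribosome biogenesis genes (circles) and the divergent neighbours that start within 1000 bp of them (squares). The neighbours have a median of -0.04 and the genes of the set one of -0.24, and the circle lies left of the square in each pair. The choice of the set, made with its lower values known, favours this order.

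Motifs were counted on both strands of the windows described with the promoters above. CCGGAAGT was present in 14 of 49 of these genes (28.6%), against 8.25% of the 11251 genes tested that have a window. CACGTG was present in 11 of 49 (22.4%), against 11.3%. The palindromic motif of NRF1 was found in 0 of 49, against 2.11%, and a CG-rich palindrome that begins with TCTCGC in 0 of 49, against 0.987%. Rpf2, Rrn3, Tsr1 and Utp4 held both CCGGAAGT and CACGTG. Counted from the RefSeq start, which for Nhp2 and Utp20 is not the GENCODE start, the CCGGAAGT of Nhp2 shown above begins 23 bases before the start, and the CACGTG of Pes1 and Utp20 begins at bases 3 and 38 after it. The median log2 fold change was -0.20 for the 11 genes with CACGTG and -0.24 for the 38 without, and -0.23 for the 14 with CCGGAAGT and -0.22 for the 35 without. A match describes letters in the window and not binding, and genes with several starts count once if any window holds the motif.

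Reads of genes that overlap on opposite strands cannot be told apart unless the counting used strand, which the sources used here do not give. Exons of 22 genes overlap an annotated gene on the other strand. Of these 21 had lower values, with a median log2 fold change of -0.24, and of the 35 without such an overlap 33 had lower values, with a median of -0.23. For Nhp2 the overlap with Rmnd5b covers 44 bp, or 3.84% of its exons, and Rmnd5b had a log2 fold change of -0.10 (SE 0.07).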

How the data were processed

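RNA sequencing libraries were made with a Yeasen Hieff mRNA kit from 2 µg of total RNA, per the labels' protocols. The authors deposited 1 table of whole-number read counts per gene, without normalization. The submitters' processing notes name TopHat2, Cufflinks, DESeq and the build GRCm38, without versions; neither these notes nor the labels name the counter, its use of strand or the annotation release. Columns were matched to samples through the labels.

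Of 25031 genes, 15416 passed filterByExpr of edgeR 4.0.16 (R 4.3.3). Libraries, with total counts of 29762157 to 37415213, were scaled by TMM (factors 0.95 to 1.03). CePPy was compared with vehicle by the edgeR quasi-likelihood test with treatment as the only term (4 residual degrees of freedom) and Benjamini-Hochberg adjustment over all genes at 0.05. An error is the SD of 3 libraries, or for a log2 fold change its SE. DESeq2 1.42.0 and limma 3.58.1 (voom) were alternatives, with other scalings, no filter, a replicate block and each library left out. The tests were checked on simulated counts. No library was a copy of another of its group (chi-square per degree of freedom 19.7 to 106). An exact permutation test of 3 against 3 cannot give a two-sided p below 0.1.

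Coordinates and exon lengths are from GENCODE M21 (GRCm38), promoters from RefSeq (GRCm38.p6). The members and lists were chosen with earlier results of these data known. Values in every library are given, per role, for up to 3 genes with the lowest edgeR p, the one with the highest RPKM and the one with the highest log2 fold change if above 0; other genes were named by their lists or by what singles them out, after their values were seen. From further lists the named genes are among the 3 with the lowest p, plus Myc, Trp53, Mdm2 and Cdkn1a. A list of 13 snoRNA host genes was not analysed here.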

Additional observations from a re-analysis of the deposited data

How the results depend on the processing

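Over the alternatives and the fits without 1 library, 49 of the 57 ribosome biogenesis genes kept the sign of their log2 fold change. The other 8 turned: with a library left out, Npm3 ranged from -0.163 to 0.186, Tcof1 from -0.25 to 0.016, Nop14 from -0.193 to 0.0257, Wdr3 from -0.0417 to 0.0339, Noc3l from -0.217 to 0.0011, Rpf2 from -0.0977 to 0.0113, Polr1a from -0.0834 to 0.0407 and Rrn3 from -0.0488 to 0.0707, as did Myc from -0.444 to 0.132. With library sizes alone Npm3 was at -0.0218. The median of the 57 genes ranged from -0.32 (without CePPy 2) to -0.15 (without CePPy 1), and the number with lower values from 49 to 55. edgeR called 0 of the 57 genes, DESeq2 5, edgeR without the filter on low counts 1 (Nhp2), and between 0 and 5 were called with a library left out. Over all genes edgeR called 1, DESeq2 993, edgeR without the filter 63, and fits without 1 library between 0 and 811 (without CePPy 2). With the replicate number as a block edgeR called 0 genes in all and 0 of the 57. Same-numbered libraries did not pair: their deviations from the group means correlated at -0.14, 0.13 and -0.01, and only library 2 correlated best with its own number. The causes were not tested. The median log2 fold change of all genes lay between -0.02 and 0.02 under each scaling and test. Each of the 57 genes had 119 or more counts in every library. The parts of counting error and of spread between libraries in these values were not tested.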
